A study of Ginkgo biloba with 2 samples.

Results

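Of 723 known microRNA (miRNA) names in small RNA libraries from Ginkgo leaves, 161 carried a number of 1000 or higher and a listed sequence of 21 bases that began with T (U in the RNA) in every library that listed them. These 161 names are the members described here. They were chosen by number, length and first base, and 16 higher-numbered names, 2 of which also met these criteria, were left out by name. Some of the 16, such as miR1215, miR5301 and miR6118, were set apart as abundant names, so the choice was not wholly free of level. The study sequenced mature leaves of Ginkgo biloba trees, about 30 years old and growing outdoors, a species with separate sexes. There was 1 library from female trees and 1 from male trees, and the sources used here leave unstated how many trees went into each. The tables hold miRNA names only, so neither the tissue nor the sex could be checked against marker transcripts. With 1 library per sex, no difference below has a replicate check or a p-value, and the spread between trees is unknown.

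A plant miRNA is cut from a hairpin transcript by a Dicer-like enzyme, which usually leaves a product of 21 bases, and is then loaded into an ARGONAUTE protein. In flowering plants, ARGONAUTE1 favours RNAs whose first base is U, so length and first base together describe the usual form of a miRNA that cleaves target transcripts. Old families shared by many land plants mostly have low numbers, whereas high numbers were mostly given to miRNAs described later, many of them in 1 species or genus. Not every name with a number below 1000 is an old family. Below, "older" refers to such a number and not to the age of a family. A high number in these tables says which database name a Ginkgo sequence was matched to, not that the Ginkgo RNA has that miRNA's function.

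The library totals, worked out from the deposited reads and levels, were 13193290 female and 12137619 male reads. So 1 read was worth 0.0758 RPM (reads scaled to equal library totals, the unit of the deposited levels) in female and 0.0824 RPM in male leaves. The members took 118194 female and 94849 male reads. That was 4.79% of all known miRNA reads in female leaves (exact 95% interval 4.76 to 4.82%) and 3.88% in male leaves (3.85 to 3.90%). Each library listed 113 members: 65 were listed in both (40.4%), 48 in female leaves only and 48 in male leaves only. Of all 723 known names, 339 were listed in both (46.9%), 191 in female leaves only and 193 in male leaves only. Reads of a name at 0 were given an upper limit of 3 reads, 0.227 RPM in female and 0.247 RPM in male leaves. Intervals and limits of this kind describe the counting error of reads alone and leave out the spread between trees. Reads without molecular identifiers are PCR products, so the intervals may be too narrow even for the sampling of molecules.

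The 45 members with an identical sequence in both libraries included most of the abundant names read in both. The 12 shown here are those with the highest mean level among them, with bases 2 to 8, the seed that begins pairing with a target, in capitals, and T for U as deposited.
miR7708: tTAATGGActggaacaaaagc
miR1521: tCTGTTAAtggagatgttgac
miR5183: tTGTGGACaaatttgtaggca
miR5717: tTAGGATTtgttggccttggc
miR6280: tTGGCAGGaagatcgtttggt
miR7773: tTTTTCCTtcgctgatactgt
miR7539: tGGAGTAGagagagcgagaag
miR5376: tGAAGGATttgaagatttcgg
miR6171: tGTGGATTgccgaaggattta
miR4414: tGTGAATGatgcgggagctga
miR7825: tTGAAGAAgggtaagaagatg
miR1052: tTCTTCTAttgattgatggca
No seed was shared among these 12.

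A second set was read in a single library, and the highest of them were among the most abundant of all members. The sequences below are the 4 highest of each library, female first, with the seed in capitals.
miR5063 (female only): tCATGGAAaacggctttagct
miR5786 (female only): tCTCGCAGgacagagcggcat
miR5541 (female only): tCAAGTGTgttctcataagga
miR6191 (female only): tAGATTTGtcagatattcaaa
miR6460 (male only): tGAGATTGggattacaatcga
miR5231 (male only): tTATCAAGaacgataagcgca
miR3433 (male only): tCAAGTCCttcattacccacc
miR5745 (male only): tTTATAGTtagaacatcgtca
None of the 18 single-library members at 10 or more RPM had a near match under another name in the opposite library. The closest listed sequence there was 4 edits away, and the longest shared stretch was 12 bases.

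How a member was listed went with how many reads it had. Members with an identical sequence had a median of 101 female and 129 male reads, and 1 of 45 in female and 0 of 45 in male leaves had 1 to 3 reads. The 20 members with different sequences had medians of 12.5 and 6.5 reads in female and male leaves, and 5 and 7 of them had 1 to 3 reads. Members read in a single library had medians of 7 female and 3 male reads, with 16 of 48 female and 25 of 48 male ones at 1 to 3 reads. In all, 44 of the 161 members had at most 3 reads in every library. Where such a member was read in a single library, its absence from the opposite one was within what a count of 0 allows.

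**Figure D1:**
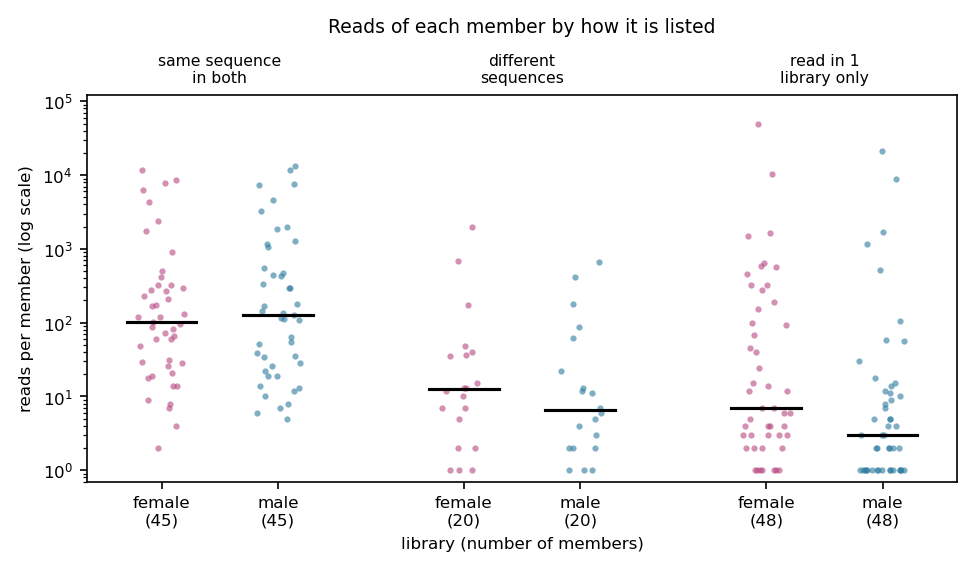
Reads of each member (log scale) in female and male leaves, for members with the same listed sequence in both, with different sequences, and read in 1 library only; each point is 1 member and the bar is the median. Medians were 101 female and 129 male reads for identical sequences, against 7 and 3 for members read in 1 library, a group that also holds the highest points of the plot.

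A minimum of 10 RPM in at least 1 library left 46 of the 161 members, 28.6%, against 32.1% of all 723 known names. Differences were taken as log2 of (female RPM + 1) over (male RPM + 1), which understates the difference of low names. Of the 46, 16 were at least 2-fold higher in female leaves, 34.8%, against 29.3% of all 232 known names at the minimum. Another 11 were at least 2-fold higher in male leaves, 23.9%, against 33.2% of all known names, and 19 lay within 2-fold. Counting only those whose interval lay wholly beyond 2-fold, 15 were higher in female leaves, against 28.4% of all known names, and 11 in male leaves, against 32.3%. So 58.7% of the members differed by at least 2-fold, a share near the 62.5% of all known names, members included. Their median log2 ratio was -0.11, beside -0.27 for all known names at the minimum. Scaling by the median ratio turned the sign of the members' median.

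The call depended on the listing, in part by construction. A name at the minimum with no read in the opposite library always comes out at least 2-fold higher. The counts of such names are therefore no test of that dependence. Of the 16 members higher in female leaves, 13 had no male read, and of the 11 higher in male leaves, 5 had no female read. Over all known names these counts were 34 of 68 and 29 of 77. Among the 24 members at the minimum with an identical sequence in both libraries, 1 was at least 2-fold higher in female leaves and 5 in male leaves. The same counts over all 96 known names with an identical sequence were 7 (7.29%) and 19 (19.8%). The member just above the minimum was miR7984, with 132 female and 129 male reads and a higher level of 10.6 RPM, in male leaves. Just below it were miR5740, at 7.35 female and 9.31 male RPM, and miR4243, at 7.66 and 9.06 RPM.

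**Figure D2:**
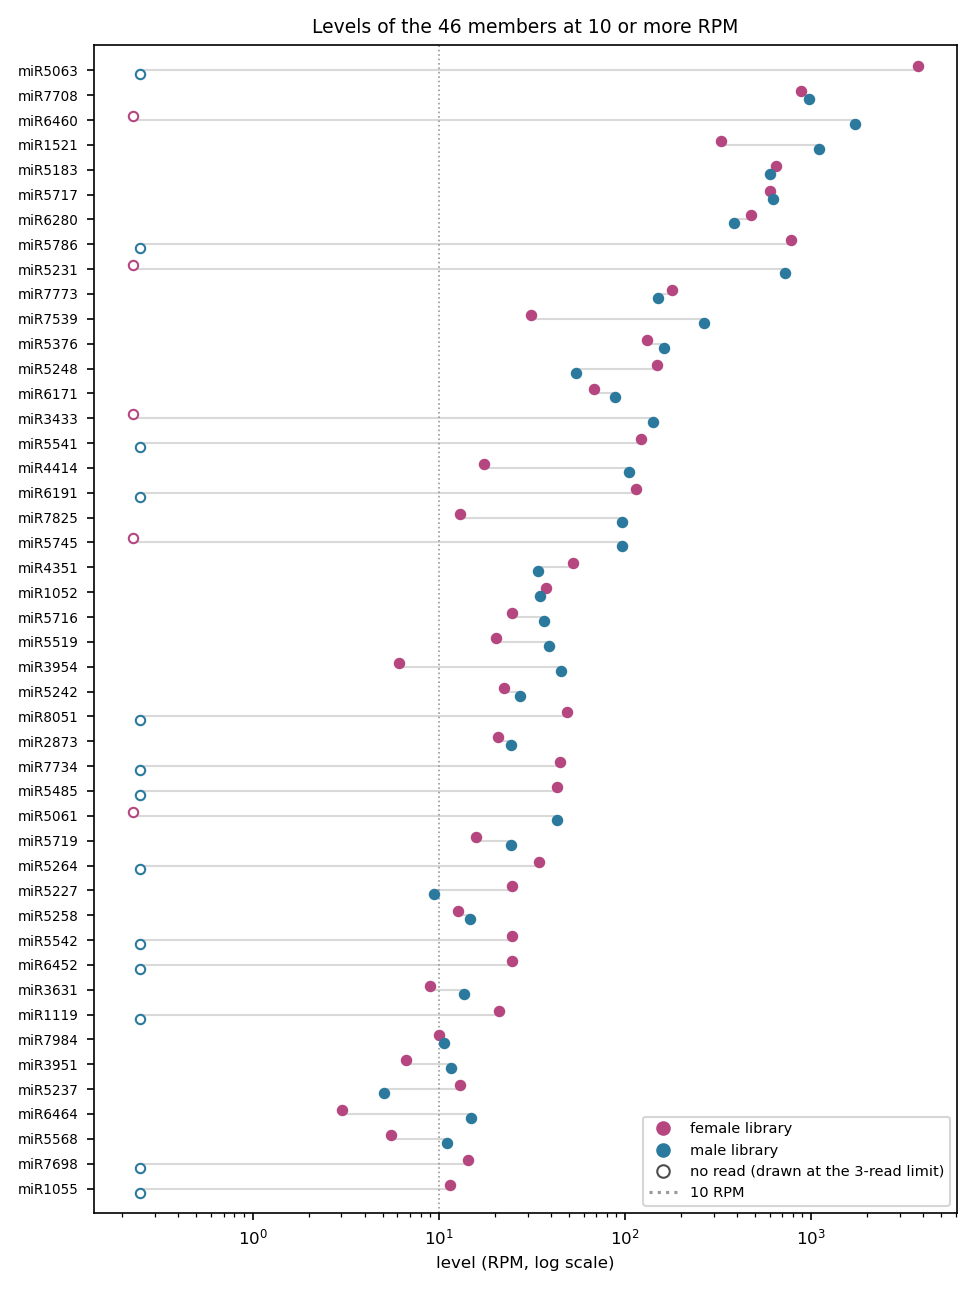
Level in RPM (log scale) of the 46 members that reached 10 RPM, by mean level from the top, with female leaves above male leaves in each row; hollow points are names with no read, drawn at the limit of 3 reads. miR5063 stood at 3745 RPM in female leaves with no male read, and miR6460 at 1727 RPM in male leaves with no female read, while miR7708, miR5183 and miR5717 nearly coincide.

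The highest of all members was miR5063, with 49404 reads (3745 RPM) in female leaves and no read in male leaves. Against the limit of 3 male reads it was at least 15150-fold higher in female leaves. It ranked 6 among all known names of that library and made up 41.8% of the members' female reads. The next female-only name, miR5786, had 10262 female reads (778 RPM) and no male read, at least 3147-fold higher. After it, in order of level, came miR5541 with 1619 female reads, miR6191 with 1512, miR8051 with 645, miR7734 with 590, miR5485 with 571 and miR5264 with 459, each without a male read. Their bounds fell in that order, from at least 496-fold for miR5541 to at least 141-fold for miR5264. The remaining female-only members at the minimum, miR5542, miR6452, miR1119, miR7698 and miR1055, had between 325 and 152 reads.

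In male leaves the first place was held by miR6460, with no female read and 20959 male reads (1727 RPM), at least 7594-fold higher in male leaves. It ranked 18 among all known names there and made up 22.1% of the members' male reads. miR5231 had no female read and 8796 male reads (725 RPM), at least 3187-fold higher in male leaves. miR3433 followed with 1719 male reads, miR5745 with 1167 and miR5061 with 522, all without a female read and at least 623-fold, 423-fold and 189-fold higher in male leaves. Of the 48 single-library members on each side, 13 reached 10 RPM in female leaves, against 5 in male leaves. Over all known names, 34 of 191 female-only and 29 of 193 male-only names did.

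Single-library names carried 5066 of the members' 8959 RPM in female leaves, 56.5%, and 2766 of 7814 RPM in male leaves, 35.4%. The summed level of the members was therefore higher in female leaves only with these names included. Without miR5063 and miR6460 the sums were 5214 female and 6088 male RPM. Over the 45 members with identical sequences they were 3660 and 4925 RPM. Sex and library cannot be told apart here, since each sex has 1 library.

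Among members with the same sequence in both libraries, 4 of the 5 most abundant lay within 2-fold, and the exception was miR1521. miR7708 stood at 889 RPM in female and 975 RPM in male leaves, a female over male ratio of 0.912 (exact 95% interval 0.889 to 0.936). miR5183 had 652 and 601 RPM (ratio 1.09, 1.05 to 1.12), and miR5717 had 600 and 625 RPM (0.961, 0.931 to 0.992). These names ranked between 25 and 34 in both libraries, so they belong to the upper part of each. The ratios of miR7708 and miR5717 turned to above 1 with scaling by the median ratio, so no direction is given for them. miR6280 had 475 female and 385 male RPM (1.23, 1.19 to 1.28), and miR7773 had 179 and 152 RPM (1.18, 1.11 to 1.26). Both were higher in female leaves and within 2-fold.

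Other equal-sequence members within 2-fold leaned to male leaves. miR5376 had 131 female and 163 male RPM (ratio 0.803, interval 0.753 to 0.857), and miR6171 had 68.0 and 88.4 RPM (0.769, 0.703 to 0.841). Lower down, miR5716 had 24.7 and 36.7 RPM (0.672, 0.581 to 0.777) and miR5519 had 20.3 and 39.1 RPM (0.520, 0.446 to 0.605), just within 2-fold. miR1052, a name first described in a moss, had 37.7 and 35.2 RPM (1.07, 0.939 to 1.22). Its interval included 1, as did those of miR7984, miR5258 and miR2873, so these 4 did not differ beyond counting error. Of the 24 equal-sequence members at the minimum, 5 had a ratio above 1 and 19 below 1, which became 9 and 15 with scaling by the median ratio.

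At least 2-fold higher levels in male leaves were found for 5 equal-sequence members. miR1521, a name first described in soybean and the highest of them, had 4337 female and 13461 male reads (329 and 1109 RPM), 3.37-fold higher in male leaves (interval 3.26 to 3.49). miR7539 had 411 female and 3226 male reads (31.2 and 266 RPM), 8.53-fold higher in male leaves (7.70 to 9.48), the largest ratio among members with reads in both libraries and a level of 10 RPM. miR7825 had 171 and 1175 reads (13.0 and 96.8 RPM), 7.47-fold higher (6.36 to 8.82). In all 3 the same 21 letters were listed in both libraries, and all 3 lay far beyond counting error. miR3954, which in citrus is known to start the production of secondary small RNAs, had 81 female and 549 male reads (6.14 and 45.2 RPM), 7.37-fold higher in male leaves (5.83 to 9.42). miR4414 had 232 and 1271 reads (17.6 and 105 RPM), 5.95-fold higher (5.17 to 6.88). All 5 lay beyond 2-fold with offsets of 0.1 and 10 RPM and under both other scalings tried. For miR7539 a like name limits the reading. In female leaves miR6281, which is not a member, had 3356 reads. Its sequence there was 5 edits from that of miR7539, with a shared stretch of 14 bases. All 3 of its female targets were also targets of miR7539. Whether the male excess of miR7539 reflects how reads were divided between these names was not tested.

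A single equal-sequence member at the minimum was at least 2-fold higher in female leaves. This was miR5227, with 326 female and 115 male reads (24.7 and 9.47 RPM) and a ratio of 2.61 (interval 2.10 to 3.25). With an offset of 10 RPM it fell within 2-fold. In male leaves an 18-base stretch of it was also listed under miR5021, a name with 325 female and 250 male reads.

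**Figure D3:**
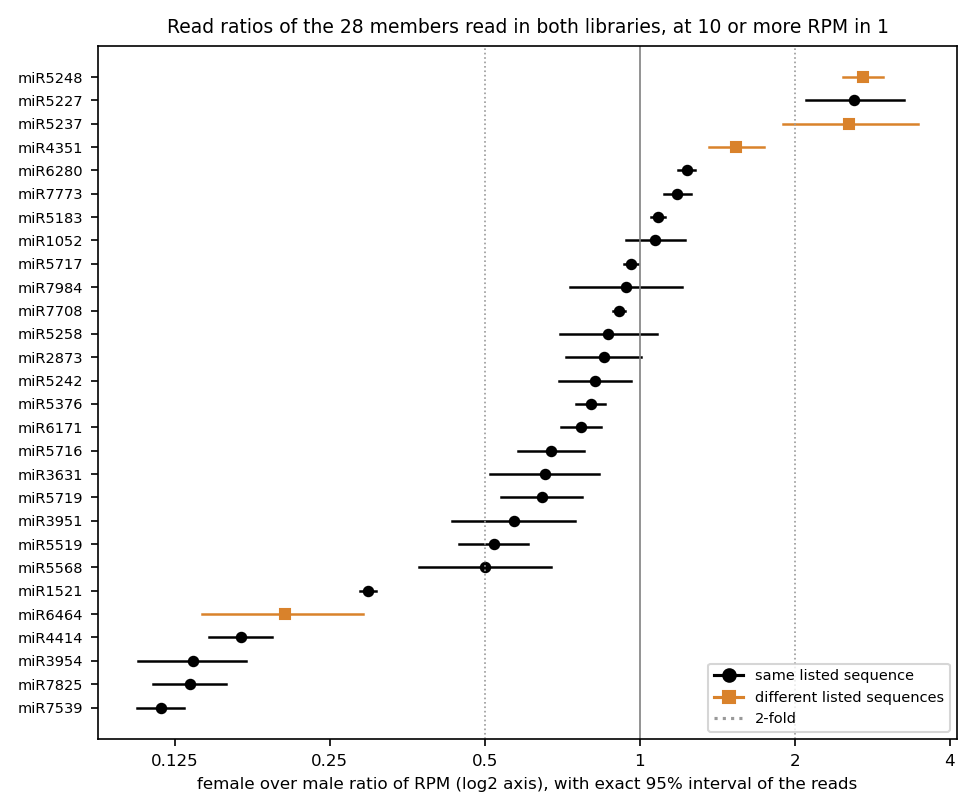
Female over male ratio of RPM (log2 axis) with its exact 95% interval for the 28 members read in both libraries and at 10 or more RPM in at least 1; circles have the same listed sequence in both libraries, squares different ones, and dotted lines mark 2-fold. miR7539, miR7825, miR3954, miR4414 and miR1521 lie on the male side of 2-fold, miR5227 on the female side, and the other 18 circles between the 2-fold lines.

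For 20 members read in both libraries the listed sequences differed, and 4 of these reached 10 RPM. The pairs are shown because a difference in level between them may compare unlike RNAs, with the seed in capitals. It is not known if a count includes reads of a name beyond those of its listed sequence.
miR5248 (female): tTGTTTAGttggcacgctttc
miR5248 (male): tTATTCAGttggcatgcattc
miR4351 (female): tTGGATCTcagttggaattgg
miR4351 (male): tTGGATCTcagttggagttgg
miR5237 (female): tTTAACAAtatttgttgggat
miR5237 (male): tTCAATAAgattcgttgggat
miR6464 (female): tATTGTCTtcttcgatattat
miR6464 (male): tGAGTGCTtgttggagatata
The miR4351 pair differed by 1 edit and kept its seed, whereas the pairs of miR5248 and miR5237 were 4 edits apart and that of miR6464 was 8. Over all 20 members, 3 pairs lay within 2 edits, 8 at 3 to 5 edits and 9 at 6 or more, and 2 kept the seed. The nearest any pair came to each other's reverse complement was 8 edits.

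In level, miR5248 had 1958 female and 664 male reads (148 and 54.7 RPM), 2.71-fold higher in female leaves (interval 2.48 to 2.97). miR5237 had 172 and 62 reads (13.0 and 5.11 RPM), a ratio of 2.55 whose interval, 1.90 to 3.47, reached below 2-fold. miR6464 went the other way, with 40 female and 180 male reads (3.03 and 14.8 RPM), 4.89-fold higher in male leaves (3.46 to 7.07). miR4351 had 695 and 415 reads (52.7 and 34.2 RPM), within 2-fold at a ratio of 1.54 (1.36 to 1.74). With an offset of 10 RPM the calls of miR5237 and miR6464 were lost.

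The members were set beside 3 other classes of names, with no test, since 1 library per sex gives none. Of 33 names at the minimum that also had a number of 1000 or higher and 21 bases but another first base in at least 1 library, 5 were read in 1 library only (15.2%), against 18 of 46 members (39.1%). For names of 22 bases with a number of 1000 or higher this was 8 of 15 (53.3%). For names with a number below 1000, 21 bases and T first it was 3 of 15 (20.0%), and for all known names 63 of 232 (27.2%). A name read in 1 library had to meet the criteria for members once and a name read in both had to meet them in each, which by itself favours single-library names among the members. Of members read in both libraries, 69.2% had identical sequences, against 55.1% with another first base and 85.0% with a number below 1000. The share was 90% in the 22-base class, 9 of 10 names, and 44.5% over all known names, 151 of 339. Here too the criteria bear on the share, since a pair of unlike sequences had to meet them in both.

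**Figure D4:**
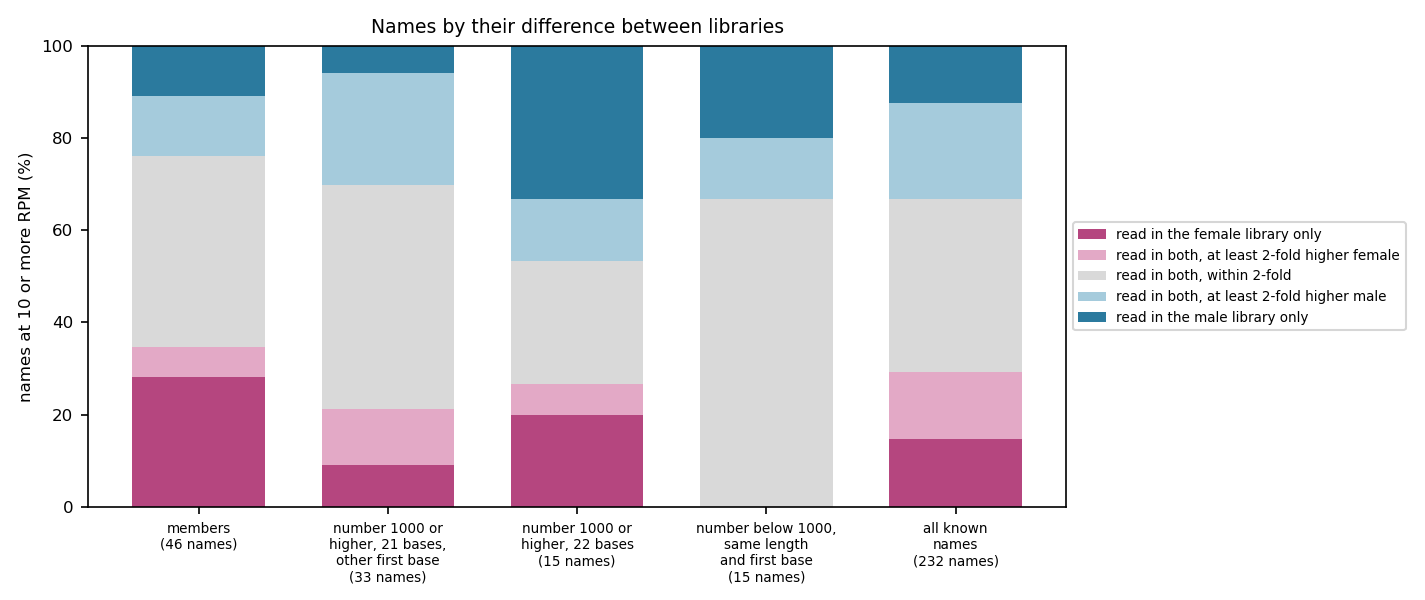
Share of the names that reached 10 RPM, by how they differed between the libraries, for the members and 4 sets they are set beside; the stacked parts of each bar sum to all names of that class at the minimum. Of the members, 13 of 46 were read in female leaves only and 5 in male leaves only, against 34 and 29 of 232 over all known names. None of the 15 names of the same length and first base with a number below 1000 was at least 2-fold higher in female leaves.

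The typical member was low, as was the typical known name. The median level of members listed was 2.35 RPM in female and 1.07 RPM in male leaves, against 1.59 and 1.65 RPM over all known names. For names of the same length with another first base the medians were 0.947 and 1.24 RPM. Names with a number below 1000, the same length and T first had medians of 41.7 and 30.4 RPM. Those 31 older names together stood at 102599 female and 102950 male RPM, more than the 161 members by over an order of magnitude. Members were also poorer in G and C: over bases 2 to 21 the median G+C content was 40.0% in both libraries, against 50.0% in both for the older names and 42.5% female and 45.0% male for the names with another first base. T was the commonest second base, in 44.2% of the members listed in female and 38.1% in male leaves, whereas C was the commonest in the older names, with 43.5% and 42.9%. Among other names with a number of 1000 or higher, T in second place was also frequent. It was found in 34.6% and 37.9% of those of 22 bases, and in 34.4% and 29.2% of 21-base names with another first base.

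The sequences of the members were mostly unlike each other and unlike names with a number below 1000. The 113 members of female leaves had 110 different seeds and those of male leaves 112. In female leaves 15 members shared a seed with some other known name, and in male leaves 11. Only miR3954 and miR5657 shared a seed in both libraries while both being members, with 6 edits between the whole sequences; the pair is shown with the seed in capitals.
miR3954: tGGACAGAgacgaatccggta
miR5657: tGGACAGAagatgatttggtg
A single member, miR1521, lay within 2 edits of a name with a number below 1000: the sequence listed for miR869 in male leaves, which had 297 reads there against 13461 for miR1521. The members that shared a seed with an older name were low or differed elsewhere. miR6456 had the seed of miR397, the laccase-directed family, on 1 female read, and miR6022 that of miR528 on 4. miR5751, with 14 male reads, had the seed of miR413, and miR4351 had in female leaves that of miR861, 9 edits away.

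Some abundant members overlapped names that are not members, shown with the shared letters in capitals.
miR6280: ttgGCAGGAAGATCGTTTGGT
miR5499 (female): GCAGGAAGATCGTTTGGTa
miR5716: tTCATAGATTGAAGATATTAA
miR6271 (female): TCATAGATTGAAGATATTAAt
miR5499 shared 18 bases with miR6280 in both libraries and had 398 female and 136 male reads, beside 6264 and 4673 of miR6280. miR6271 shared 20 bases with miR5716 in female leaves, where it had 64 reads beside 326. How reads divide between such names is uncertain, because the assignment of reads to names is not described in the labels.

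A single member faced another name on the opposite strand. The sequence of miR6171, the same in both libraries, was complementary over 19 bases, in capitals, to the sequence listed for miR6027 in male leaves.
miR6171: TGTGGATTGCCGAAGGATTta
miR6027 (male): AATCCTTCGGCAATCCACAa
The complement left 2 unpaired bases at the 3′ end of miR6171 and 1 at that of miR6027. In male leaves miR6171 had 1073 reads and miR6027 had 484. In female leaves miR6171 had 897 reads, and miR6027, with another listed sequence, had 235. In nightshade plants miR6027 belongs to a group of miRNAs directed at disease resistance genes.

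Of 13 names directed at disease resistance genes in flowering plants, 10 were in the tables and 3 were members, none of them at 10 RPM. The sequences of miR6024, the highest of them, are shown because they differed between the libraries, with the seed in capitals.
miR6024 (female): tTTGCCAGagtcgttttccca
miR6024 (male): tTTAGCGAgagtggttttccc
The listed sequences were 4 edits apart. The name had 36 female and 12 male reads, and their ratio of 2.76 had an interval of 1.40 to 5.83. miR6025 had 8 and 7 reads with an identical sequence, and miR6022 had 4 female reads and no male read, too few for a fold. None of 7 further names with targets known in flowering plants, such as NAC factors, calcium pumps and polyphenol oxidases, was a member, although 6 of them were in the tables.

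Members were also grouped by the plant for which their number was mainly registered, which rests on general knowledge of miRNA numbering and not on the deposited tables. Of 22 members with Medicago numbers, 7 were at the minimum: miR5227, miR5237, miR5248 and miR5264 were at least 2-fold higher in female leaves, miR5231 in male leaves, and miR5242 and miR5258 within 2-fold. Their median log2 ratio was 1.2. Of 9 with rice numbers, 4 were at the minimum, of which miR5541, miR5485 and miR5542 were read in female leaves only and miR5519 lay within 2-fold. The median over these 4 was 5.07, or 7.05 with absent names at their bound. Of 8 with soybean numbers, 3 were at the minimum, with miR1521 and miR4414 higher in male leaves and a median of -1.75. Of 8 with poplar numbers, 7 were read in 1 library only, and the sequences of the other, miR6464, differed between the libraries. Of the 3 at the minimum, miR6452 was higher in female and miR6460 and miR6464 in male leaves, with a median of -1.97. The barley, peach and potato groups had 1, 1 and 2 members at the minimum, miR6191, miR6280, miR8051 and miR7984. The background for these counts is that 62.5% of all known names at the minimum lay beyond 2-fold, with a median of -0.27. For the listing of the poplar group, the background is that 46.9% of all 723 known names and 40.4% of all 161 members were listed in both libraries. No test was made for groups of 1 to 7 names.

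Target transcripts are the authors' predictions and not measurements. Targets were listed for 83 of 113 members in female leaves and 82 of 113 in male leaves, 73.5% and 72.6%, against 71.7% and 63.9% of all known names. A member had a median of 2 distinct targets in female and 3 in male leaves, and at most 29. Pairs of a member and a target numbered 307 for female and 320 for male leaves. The 171 pairs found in both were 55.7% of the female and 53.4% of the male pairs. All 34 equal-sequence members with targets had identical lists in both libraries, which a prediction made from the sequence gives by construction. Of the 20 members with different sequences, 10 had targets in both libraries, and 3 of these 10 kept any target, namely miR4351, miR4400 and miR5237. The overlap of pairs thus follows in part from how many members were listed in both libraries with an identical sequence. Neither it nor the count of kept targets was taken over all known names, so neither sets the members apart.

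The longest list belonged to miR5242, at 22.4 female and 27.4 male RPM, with 29 targets in both libraries. They came down to 11 groups when contigs of 1 assembly cluster were joined, and 12 of the 29 were contigs of the leaf cluster CL907. miR5717 had 12 targets in both libraries, 4 of them contigs of CL1010. In female leaves the same 12 transcripts were all the targets of miR6024, although the sequences were 13 edits apart with a longest shared stretch of 4 bases. They were also 12 of the 14 targets of miR6462, which shares a 12-base stretch with miR5717. The male sequence of miR6024 had 7 targets and none of these, and shared 4 contigs of cluster CL320 with miR5242 instead. Long lists also came from barely read names: miR5246 had 12 targets on 3 male reads, 11 of them contigs of CL1966, and miR6021 had 10 on 1 male read. miR1119, read only in female leaves, had 10 targets, 7 of them contigs of CL7208, whereas all 9 targets of the female-only miR7734 were public records and not leaf transcripts.

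Shared targets joined other members too. miR5657 and miR6171 shared 4 leaf transcripts in both libraries, among them Unigene834 and Unigene835. miR7773 and miR5242 shared the 4 contigs of CL2870 in both, which in male leaves were targets of miR1448 as well, a name related to miR482, the family directed at disease resistance genes. In female leaves miR7773 and miR1448 had the same seed, 9 edits apart over the whole sequences. miR1521 and miR3433, both higher in male leaves, shared 1 contig of cluster CL684 there. In male leaves miR3440, with 10 reads, shared 2 contigs of CL2010 with miR172, the family that targets AP2-like factors of flowering time. Of the highest single-library names, miR5063 had 2 targets, miR6460 had 1, miR5231 had 3, and miR5786 had none listed. The transcripts carry no annotation in the deposited tables, so no function is given for them.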

How the data were processed

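Small RNA of female and male Ginkgo leaves was sequenced in 1 library each with a standard Illumina protocol, per the labels. The labels name no aligner, miRNA database, target predictor or genome build. The authors deposited, per library, RPM per known name (named TPM in their files), a raw read count per name beside 1 sequence, and a count of predicted targets with their identifiers. No source used here says how that sequence was chosen. The library totals were worked out from the summed reads of the known names and their summed RPM. Every deposited RPM value above 0 and below 60 was a whole number of reads to within 0.01 read (100% in both libraries). Tables of predicted miRNAs were not used.

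Groups came from the labelled sex. Log2 ratios used RPM plus 1, a minimum of 10 RPM in at least 1 library and a 2-fold threshold. Ratios carry exact 95% conditional binomial intervals (Clopper-Pearson, scipy 1.17.1), and edits are insertions, deletions or substitutions (edlib). Repeated target identifiers were counted once. Code was tested on simulated reads.

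The members, lists, named names and alternatives were chosen with earlier results of these data known. Named members were the 12 highest by mean level, the 8 largest ratios each way, up to 15 with equal sequences, up to 8 like older names, the 4 with most targets per library, and the listed names. Other names given were picked after their values were seen.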

Additional observations from a re-analysis of the deposited data

How the results depend on the processing

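No paired analysis was possible because there is 1 library per sex and the labels give no replicate numbers. Of the 46 members compared, 16 were called higher for female and 11 for male leaves. With no minimum these counts were 26 and 20 of 161, with a minimum of 100 RPM 5 and 6 of 17, over members listed in both libraries 3 and 6 of 28, and over those with the same listed sequence 1 and 5 of 24. The sets compared are smaller or larger by construction. Both counts stayed within 1.5 times with offsets of 0.1 and 10 RPM, both scalings, a 1.5-fold threshold and intervals wholly beyond 2-fold. The median log2 ratio, -0.11, was 0.11 with scaling by the median ratio and -0.34 over equal sequences. Members sharing a seed numbered 15 female and 11 male with bases 2 to 8, and 37 and 26 with bases 2 to 7. The number of members alike to a name below 1000 was 0 by a shared stretch of 16 bases and 1 within 2 edits, miR1521, whose longest shared stretch was 11 bases. Depth limits the low names: 44 members had at most 3 reads in every library.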
